A study of Mus musculus with 236 samples.

Results

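Cytosolic ribosomal protein genes encode the proteins of the small and large ribosomal subunits outside mitochondria. The members were taken by symbol, as Rps or Rpl with a number and an optional suffix, with Rpsa, Rplp0, Rplp1 and Rplp2, and without the ribosomal S6 kinases and the named pseudogenes. The rule found 89 of the 39300 gene rows of the expression table, 36 of the small and 53 of the large subunit. Of these, 88 had at least 1 unique molecular identifier (UMI, a tag that marks one captured RNA molecule), 79 had at least 20 UMIs and 56 had at least 100. Rpl6l had none.

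The cells came from 1 female embryonic stem cell line derived from mouse blastocysts, with a mother of strain C57BL/6J (B6) and a father of strain CAST/EiJ (CAST), so every cell of both groups carried both genomes. The line was kept in serum medium with LIF, the Gsk3 inhibitor CT99021 and the MEK inhibitor PD0325901, and differentiation was begun by removing all 3 agents and plating on fibronectin, to set off random X inactivation. HiRES, which reads chromatin contacts and RNA from the same cell, gave 406 cells in the expression table, from libraries that each hold 1 or 2 cells. No undifferentiated group was among the samples used here, so the day 0.5 cells had also left the 3 agents.

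In mammals, one gene supplies nearly all of each ribosomal protein, and most of the proteins are needed in equal numbers. Their mRNAs typically begin with a C followed by a run of pyrimidines, the 5′ terminal oligopyrimidine (TOP) tract, through which mTOR signalling and LARP1 control their translation. Unassembled RPL5 and RPL11 bind MDM2 with 5S rRNA and so link ribosome assembly to p53, and stem cells leaving pluripotency are known to adjust ribosome production.

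No separate cultures are named, so each day was 1 sample and no test was made. Differences are given as ratios with intervals of 95% that cover counting error only. The cells fell into 3 batches by a label of the authors' cell table whose meaning is not given. Batch 1 held 80 cells of day 0.5, batch 3 held 83 cells of day 2.5, and batch 2 held cells of both, 79 of letter A and 42 of letter B of the cell names at day 0.5, and 90 and 32 at day 2.5. Depth per cell ran from 501 to 23213 UMIs at day 0.5 and from 529 to 29275 at day 2.5, with medians of 13670 and 15796. The label of an embryonic stem cell was set beside marker genes. All 8 naive pluripotency markers were lower at day 2.5 by the size rule given below, all 6 formative or primed markers were higher, and the summed feeder fibroblast, neuroectoderm and mesoderm markers were each at most 0.00128% of UMIs on either day. Of 7 general pluripotency markers 4 were lower (Pou5f1, Sox2, L1td1 and Utf1), and their sum went from 0.0782% to 0.0561% of UMIs. Primitive endoderm markers summed to 0.00254% and 0.00449%, with Dab2 called higher, at 8.66 and 26.99 CPM. The part of these marker lists in the members' values was not tested.

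The windows below show the start sites of 8 members, because a TOP-like start is the known shared feature of these mRNAs. Each runs from 40 bases before to 20 bases from the annotated start, 5′ to 3′ on the gene's strand, from RefSeq on GRCm38. Capitals mark the run of C and T that begins at the annotated start.
Rpl28, chr7:4792925-4792984, plus strand: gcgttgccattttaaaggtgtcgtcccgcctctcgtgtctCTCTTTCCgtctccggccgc
Rps21, chr2:180257339-180257398, plus strand: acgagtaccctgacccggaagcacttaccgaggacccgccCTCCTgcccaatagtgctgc
Rps18, chr17:33955646-33955705, minus strand: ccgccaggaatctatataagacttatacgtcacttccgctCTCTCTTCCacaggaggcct
Rpl15, chr14:18270967-18271026, minus strand: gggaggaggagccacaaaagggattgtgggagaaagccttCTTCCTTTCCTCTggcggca
Rps10, chr17:27635225-27635284, minus strand: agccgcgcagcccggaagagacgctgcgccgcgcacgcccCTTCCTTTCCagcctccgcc
Rps6, chr4:86857348-86857407, minus strand: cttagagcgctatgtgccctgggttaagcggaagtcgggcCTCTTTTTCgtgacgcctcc
Rplp2, chr7:141447611-141447670, plus strand: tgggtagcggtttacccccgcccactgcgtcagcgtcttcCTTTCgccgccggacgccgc
Rps15a, chr7:118116128-118116187, minus strand: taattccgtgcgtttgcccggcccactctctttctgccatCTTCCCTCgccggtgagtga
These 8 were chosen after their values were seen. Rpl28 and Rps21 were called lower at day 2.5, Rplp2 and Rps15a had nearly equal levels on both days, and the other 4 lay between.

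The promoter table held 64 of the 89 members. A start of C followed by at least 4 bases that are C or T, read on the gene's strand at the annotated start, was found in 14 of the 64 members (21.9%) and in 3.01% of the 27025 genes of the table. The pattern demands an exact start position, so a start annotated a few bases away is missed. The letters TTCCGG, on either strand within 250 bases before to 50 bases after the start, were found in 35 members (54.7%) and in 16.7% of all genes. The letters CTTTTC, searched the same way, were found in 18 members (28.1%) and in 24.3% of all genes. Members with and without the TOP-like start had nearly the same median change between the days. The median log2 change was -0.29 over 13 measured members with it (3 called lower) and -0.29 over 46 without it (11 called lower). Within batch 2 the medians were -0.10 and -0.28.

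Ribosomal protein transcripts took a smaller share of the pooled UMIs at day 2.5 than at day 0.5. They were 0.323% of all UMIs at day 0.5 (8570 UMIs, interval 0.316 to 0.330%) and 0.252% at day 2.5 (8025 UMIs, interval 0.246 to 0.257%), a ratio of 0.781 (0.757 to 0.805). At day 0.5 the share was 0.321% in batch 1 and 0.324% in batch 2. At day 2.5 it was 0.252% in batch 2 and 0.251% in batch 3. Both day 0.5 batches were thus above both day 2.5 batches, and batches of one day differed far less than the days did. Within batch 2, which held both days, the ratio was 0.780 (0.748 to 0.812). The mitochondrial share of UMIs moved the same way, from 0.0769% to 0.0543%, and its part in the result was not tested. The share is relative to the rest of the RNA, so less ribosomal protein RNA and more of other RNA cannot be told apart.

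**Figure D1:**
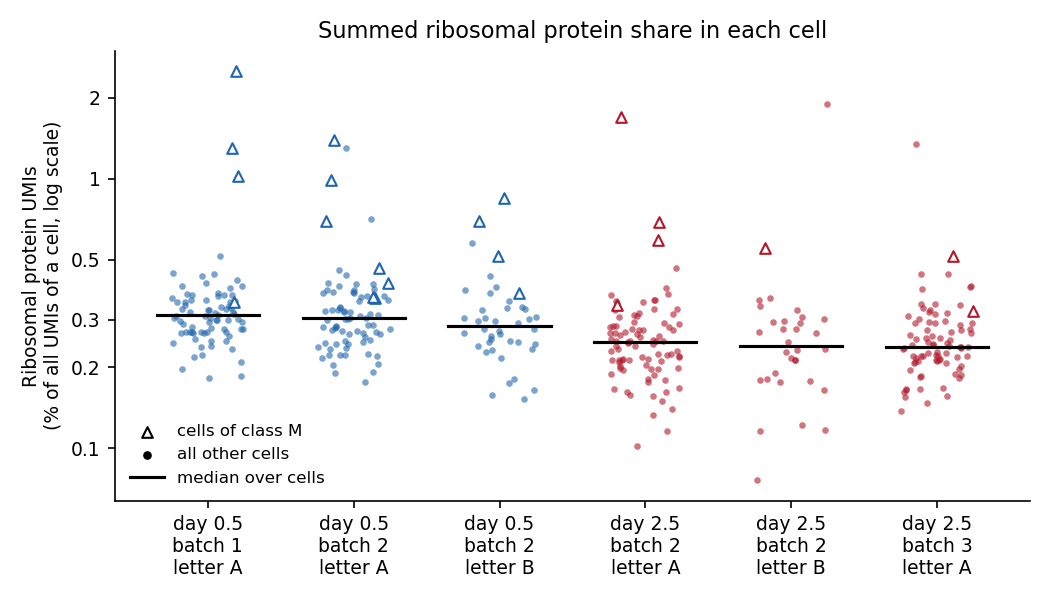
Percent of each cell's UMIs that came from ribosomal protein genes, on a log scale, by day, batch and letter of the cell name; triangles are cells of cell cycle class M, points all other cells and lines the medians. Medians lie between 0.285 and 0.311% in the 3 day 0.5 pools and between 0.238 and 0.249% in the 3 day 2.5 pools, and cells of class M lie mostly near the top.

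The table counts all UMIs within genes, introns included. UMIs on exons were 26.3% of gene UMIs at day 0.5 and 24.2% at day 2.5. Set against the number of exon UMIs, the members' UMIs, introns included, came to 1.23% at day 0.5 and 1.04% at day 2.5. This gave a ratio of 0.848 (0.822 to 0.874). Exon UMIs of the members were not counted apart, so these values are not their shares of exon UMIs.

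Small subunit genes moved from 0.124% to 0.0929% of UMIs and large subunit genes from 0.198% to 0.159%. A member was called lower or higher when it had at least 20 UMIs over both days, its level in CPM (UMIs of the gene scaled to a common total of 1e+06 UMIs) differed by at least 1.5-fold, and the direction was the same in the cells of letters A and B of the cell names. By this rule 22 of the 79 measured members were lower at day 2.5 and 0 were higher, where 20.4% of all 13779 measured genes were lower and 19.4% higher. The calls took in 12 of 31 measured small subunit members and 10 of 48 large subunit members. The median log2 change, computed with 5 CPM added to each level, was -0.33 over the measured members (-0.41 to -0.26 by order statistics), -0.44 in the small and -0.28 in the large subunit, against -0.06 over all genes. The order of the members hardly moved, with a Spearman correlation of 0.93 between the days across 79 members that share the same libraries.

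Ribosomal protein genes are short, with a median span of 3.17 kb over measured members against 31.6 kb over measured genes that RefSeq places, and short genes as a class were lower at day 2.5. The median log2 change of all genes was -0.41 for spans up to 2 kb, -0.30 from 2 to 5 kb, -0.23 from 5 to 10 kb and 0.20 above 100 kb. The members followed the same order, with medians of -0.63 over 12 members up to 2 kb, -0.34 over 54 members from 2 to 5 kb and -0.27 over 12 members from 5 to 10 kb. Among genes of at most 10 kb, 30.0% were called lower and 10.4% higher, while of the 78 measured members of that span 22 were lower (28.2%) and 0 higher. The share of members called lower was therefore near that of all short genes, which include the members. With at least 100 UMIs, 13 of 56 members (23.2%) were lower and 0 higher, beside 32.6% lower and 37 higher of 561 short genes. All other genes of up to 5 kb together gave a ratio of 0.729 (0.720 to 0.739) between the days, lower than the 0.781 of the members. The part of gene span in the members' change was not tested.

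**Figure D2:**
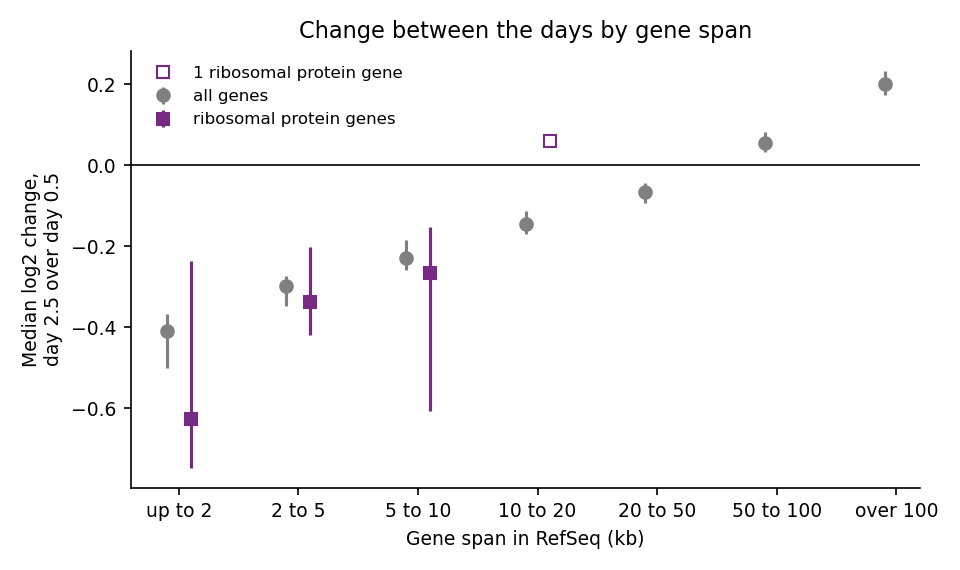
Median log2 change between the days by gene span in RefSeq, for all genes with at least 20 UMIs (grey) and for ribosomal protein genes (purple; open square, 1 gene); bars are order-statistic intervals of 95%. The grey medians climb from -0.41 for the shortest genes to 0.20 for the longest, and the intervals of the members overlap those of all genes in the 3 bins that hold over 1 member.

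Gene by gene, most members but not all kept the batch order of the pooled share. In 51 of the 79 measured members both day 0.5 batches were above both day 2.5 batches, which held for 37.1% of all genes and 49.3% of genes of at most 10 kb. The opposite order was found in 1 member, Rps19, and in 30.7% of all genes. Members with low counts can take either order by counting error.

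The largest falls among members with at least 100 UMIs were spread over both subunits. Rps24, a small subunit protein mutated in some cases of Diamond-Blackfan anaemia, was at 44.4 and 49.3 CPM in the day 0.5 batches and at 23.7 and 20.6 CPM in the day 2.5 batches. Its ratio was 0.473 (0.349 to 0.639), but the few cells of letter B went the other way, so the rule did not call it. Rpl17, a large subunit protein that lines the peptide tunnel, was at 60.5 and 79.5 CPM in the day 0.5 batches and then at 30.1 and 40.7 CPM, which gave 0.492 (0.386 to 0.626). Rps12, of the small subunit, had 41.1 and 39.6 CPM and then 16.1 and 23.7 CPM. In all 3 genes the day 0.5 batches lay well above those of day 2.5.

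Rpl28, whose TOP-like start is shown above, was at 33.7 and 36.1 CPM in the day 0.5 batches and then at 18.6 and 16.3 CPM, which gave 0.502 (0.354 to 0.707). Rps15, of the small subunit, had a ratio of 0.537. Rps3, which lines the mRNA entry channel and also has reported roles in DNA repair, went from 60.4 to 35.9 CPM. Rps20 went from 49.9 to 29.8 CPM and Rps28 from 23.2 to 12.7 CPM. Apart from Rps24, each of these and Rpl36a was called lower. The day 2.5 batches differed for Rps28, with 17.7 CPM in batch 2 and 6.38 CPM in batch 3.

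Below 100 UMIs, 4 members called lower were singled out after their values were seen. Rpl32, of the large subunit, had the lowest change of all members, from 27.3 to 8.004 CPM (98 UMIs in all, ratio 0.293, 0.179 to 0.466). At day 0.5 it stood at 16.9 CPM in batch 1 and 36.1 CPM in batch 2, so the day 0.5 batches differed from each other as well, and at day 2.5 at 7.89 and 8.15 CPM. Rps27a, which is made as a fusion with ubiquitin, went from 21.5 to 9.10 CPM. Rps21 and Rps29, both of the small subunit, went from 19.2 to 9.42 CPM and from 7.91 to 2.51 CPM.

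**Figure D3:**
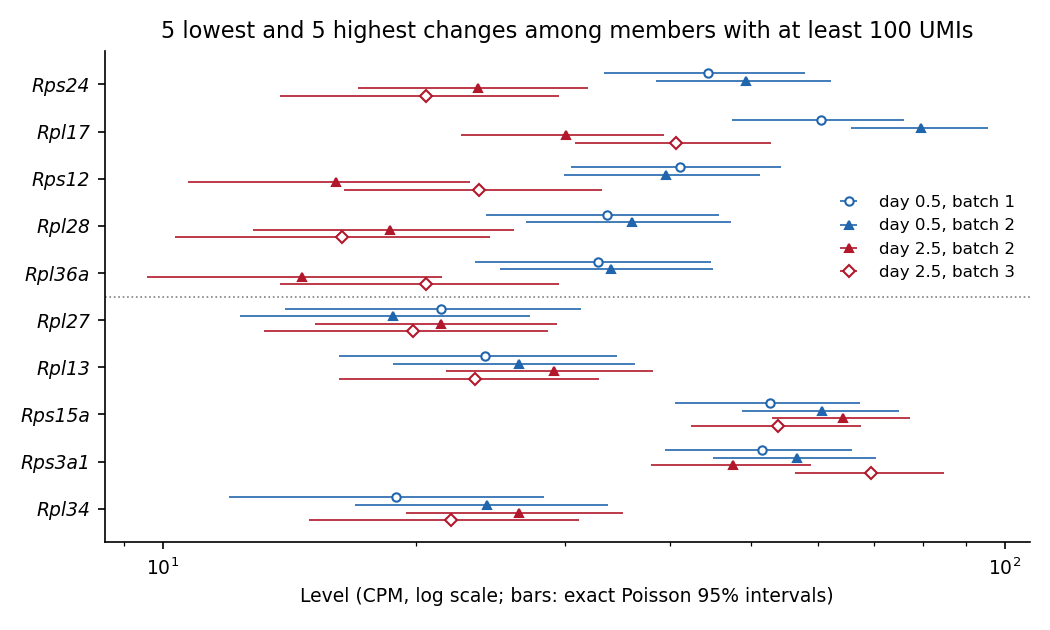
Level in each batch and day (CPM, log scale) of the 5 members with the largest falls (top) and the 5 with the highest changes (below the dotted line) among members with at least 100 UMIs; bars are exact Poisson intervals of 95%. In the upper 5 members both red day 2.5 points lie to the left of both blue day 0.5 points, and in the lower 5 the days overlap.

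A second set of members had nearly the same level on both days. Rpl3, which sits next to the peptidyl transferase centre, had the most UMIs of all members (1754) and was at 301 and 296 CPM at day 0.5 and at 292 and 314 CPM at day 2.5. Its ratio was 1.01 (0.919 to 1.11), and this interval, for counting error only, did not hold the 0.781 of the summed share. Of the Rpl3 UMIs, 33.3% were in fractional values, described below, which the interval does not cover. Rps9, which helps set decoding accuracy, was at 68.3 and 77.4 CPM and then at 75.5 and 71.6 CPM, giving a ratio of 1.01 (0.829 to 1.22). Rps15a and Rps3a1, of the small subunit, had ratios of 1.05 (0.840 to 1.30) and 1.06 (0.845 to 1.32). Rplp2, an acidic protein of the stalk that recruits translation factors, stood at 40.3 and 40.6 CPM on the days. For these genes, unlike the first set, the batches of the days were interleaved.

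The other high changes were those of Rpl27a, Rpl27, Rpl13, Rpl7a and Rpl34, with ratios from 0.970 to 1.12, and each ratio's interval held 1. Rpl34 had the highest ratio of the members with at least 100 UMIs, 1.12 (0.788 to 1.60). Rps19, the gene most often mutated in Diamond-Blackfan anaemia, had 85 UMIs and went from 12.05 to 16.6 CPM, with 12.3 and 11.8 CPM in the day 0.5 batches and 15.2 and 18.4 CPM in those of day 2.5. Its ratio of 1.38 (0.874 to 2.21) did not reach the size rule and its interval held 1.

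**Figure D4:**
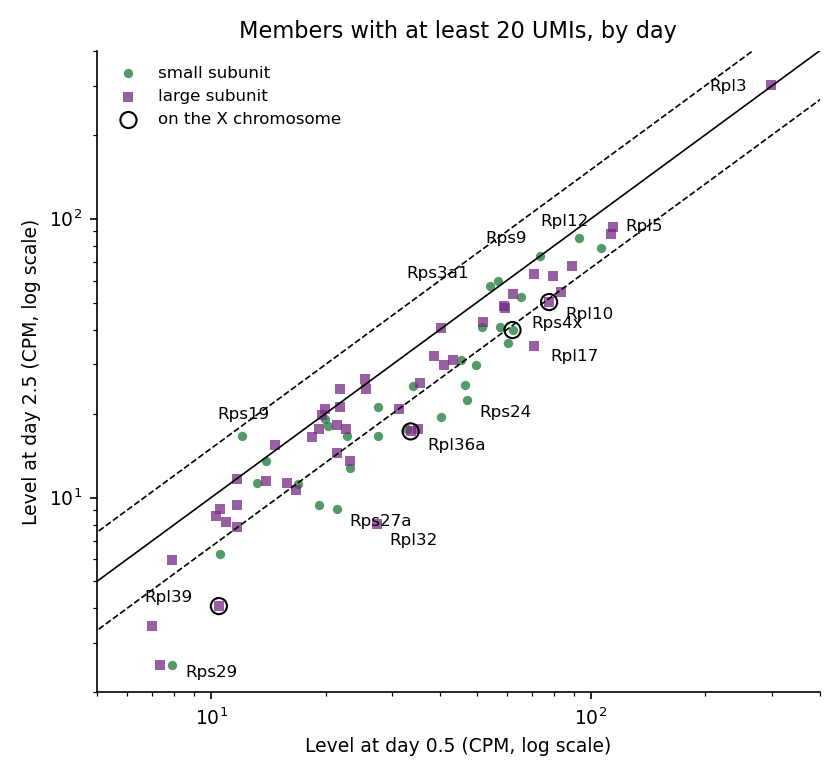
Level of each of the 79 members with at least 20 UMIs at day 0.5 against day 2.5 (CPM, both axes log), by subunit, with the 4 members on the X chromosome ringed; the solid line marks equal levels and the dashed lines a 1.5-fold difference. Most members lie below the solid line, Rpl3 lies on it at about 300 CPM, and none lies above the upper dashed line.

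The members described next did not reach the 1.5-fold size. Rpl5 went from 114.5 to 93.5 CPM, giving a ratio of 0.817 (0.694 to 0.962), and Rpl11, its partner in the 5S particle, from 51.96 to 42.7 CPM, giving a ratio of 0.822 (0.643 to 1.05). Rpl12, of the stalk base, went from 112.95 to 87.9 CPM, Rps18, of the small subunit head, from 106.2 to 78.8 CPM and Rpl9 from 79.6 to 62.3 CPM. Rpl41, which encodes the smallest ribosomal protein, went from 89.2 to 67.6 CPM. Rpsa, the laminin receptor protein of the small subunit, went from 65.5 to 52.4 CPM, giving a ratio of 0.800 (0.643 to 0.995), and Rpl38, known for its part in Hox mRNA translation in the embryo, stood at 10.5 and 9.10 CPM.

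Levels between genes were compared per kb of gene span, since the table counts introns and exons. At day 0.5 Rpl41 had the highest level per length, 84.3 CPM per kb, followed by Rpl3 with 53.1 CPM per kb and Rpl12 with 48.4 CPM per kb. Rpl19 had the lowest among measured members, 1.29 CPM per kb. The median over measured members was 9.76 CPM per kb at day 0.5 and 7.10 CPM per kb at day 2.5. Over all measured genes that RefSeq places it was 0.982 and 0.928 CPM per kb. Without the division by span the medians were close, at 27.5 and 20.7 CPM over members and 24.1 and 23.2 CPM over those genes. Median spans were 3.17 kb and 31.6 kb, so the gap per kb was not a gap in UMIs per gene. RNA levels per length thus differed widely among the members, on a scale that counts unspliced RNA and may split shared reads.

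Many members have near-identical processed copies elsewhere in the genome, which makes their counts uncertain. In 13 members over 20% of the UMIs were in fractional values, with 93.4% in Rpl13, 81.8% in Rpl32l, 79.9% in Rpl24, 63.2% in Rps10, 61.8% in Rpl13a and 54.2% in Rpl6. A fraction may mean that a molecule was divided among several genes, but its origin was not tested. The 67 measured members with at most 20% in fractions had a median log2 change of -0.34, with 19 called lower and 0 higher. All 76 members with at most 20% in fractions, measured or not, together gave a share ratio of 0.757 (0.731 to 0.783). Ribosomal protein genes also host many small nucleolar RNAs in their introns. RefSeq places at least 1 such gene within 30 members, of which 11 were called lower (median log2 change -0.43), against 11 of 49 measured members without one (median -0.30).

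The 220 named ribosomal pseudogenes, which are not members, fell to a smaller share than the members did. Their UMIs went from 0.124% to 0.0708% of the total, a ratio of 0.572 (0.542 to 0.604), and 18 of 43 measured ones were called lower and 0 higher. Rpl10a-ps1 (chr1:64993919-64994631) was the most abundant, at 419 and 260 CPM on the days, whereas its parent Rpl10a stood at 21.5 and 18.2 CPM. Whether its reads came from Rpl10a cannot be told apart in these counts. A wider rule took every symbol of Rps or Rpl followed directly by a number, pseudogenes included, without the S6 kinases. It left out symbols that begin with Rpsa or Rplp, so it was not the members and these pseudogenes exactly. By this rule the share gave a ratio of 0.719 (0.700 to 0.739).

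The share was next compared across the cell cycle classes of the authors' cell table, whose rule is unknown here. From G1 to G2 the share was nearly level at day 0.5, with 0.316% in 41 G1 cells, 0.310% in 32 early S cells, 0.311% in 87 mid S cells, 0.320% in 20 late S cells and 0.326% in 6 G2 cells. At day 2.5 it was 0.244% in 82 G1 cells, 0.231% in 15 early S cells, 0.260% in 62 mid S cells, 0.265% in 17 late S cells and 0.238% in 18 G2 cells. The day 2.5 value was the lower one in each of these classes, with ratios of 0.773 in G1, 0.745 in early S, 0.837 in mid S, 0.828 in late S and 0.729 in G2, and no interval reached 1. The days also differed in the mix of classes, so the within-class ratios stand beside the overall 0.781. The 4 cells of class G0, all of day 2.5, had a share of 0.180%.

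The G1 value of day 0.5 rested in part on 1 cell. That cell had 253.5 ribosomal protein UMIs spread over 66 members, 1.30% of its 19481 UMIs, and 47.7% of its gene UMIs were on exons. Other genes of up to 5 kb made up 6.68% of its UMIs, against 1.84% over all day 0.5 cells. It held 2.96% of the members' UMIs at day 0.5. Without cells that had over 40% of their gene UMIs on exons (3 cells on each day), the G1 share at day 0.5 was 0.276% and the G1 ratio was 0.883 (0.827 to 0.944), while the overall ratio was 0.793.

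**Figure D5:**
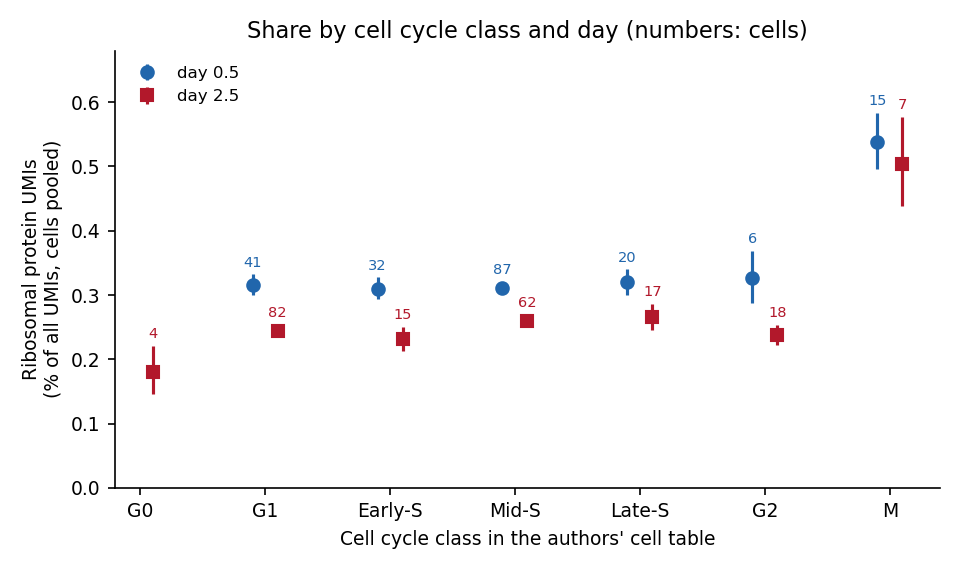
Ribosomal protein share of all UMIs, cells of a class pooled, by cell cycle class and day; bars are exact Poisson intervals of 95% and the numbers are cells. From G1 to G2 the day 0.5 values lie between 0.310 and 0.326% and the day 2.5 values between 0.231 and 0.265%, while class M stands at 0.539 and 0.504%.

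Cells of class M stood apart on both days. Their pooled share was 0.539% at day 0.5 (15 cells, 596 UMIs, 0.496 to 0.584%) and 0.504% at day 2.5 (7 cells, 212.3 UMIs, 0.439 to 0.577%). Class M exceeded all other cells of the same day 1.72-fold (1.58 to 1.87) at day 0.5 and 2.03-fold (1.76 to 2.33) at day 2.5. All 15 and all 7 cells of class M lay above the median share of the other cells of their day. The ratio was 2.25 in batch 1 and 1.57 in batch 2 at day 0.5, and 2.34 in batch 2 and 1.53 in batch 3 at day 2.5, so the size varied between batches but not the direction. Between the days the class M share gave a ratio of 0.936 with an interval that held 1 (0.796 to 1.10).

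Both subunits took part. At day 0.5 the small subunit was at 0.223% in class M and 0.120% in the other cells, and the large subunit at 0.316% and 0.193%. Rpl5 was at 176.4 CPM in class M and 111.8 CPM in other cells at day 0.5, and at 225.6 and 91.8 CPM at day 2.5. Rpl3 was at 430 and 293 CPM and then at 415 and 300 CPM. Of the 56 members with at least 100 UMIs, 35 were above the other cells on both days. This held for 36.3% of all genes with that many UMIs and for 53.1% of those of at most 10 kb, while the 35 members are 62.5%. Counts per member in class M are low, with 47.5 UMIs for Rpl3 and 5 for Rps24 at day 0.5, so single members were not ordered.

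Other features of class M moved with this. The cells were shallower, with a median of 5818 UMIs against 13931 in other cells at day 0.5 and 4819 against 15920 at day 2.5. Against cells outside class M with 2000 to 10000 UMIs, class M cells with at least 2000 UMIs still gave ratios of 1.71 (1.53 to 1.90) and 1.87 (1.58 to 2.21). The exon share of gene UMIs in class M was 26.3% at day 0.5 and 25.1% at day 2.5, against 26.3% and 24.2% in other cells. Other genes of up to 5 kb were also higher in class M, by ratios of 1.52 and 1.89. The mitochondrial share of UMIs was 0.0914% in class M and 0.0763% in other cells at day 0.5, and 0.116% and 0.0535% at day 2.5. Their part in the members' difference was not tested.

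Outside class M, cells varied more than counting error alone gives. The standard deviation of the share over cells was 0.105% at day 0.5 and 0.155% at day 2.5, where counting error at these depths would give 0.0506% and 0.0442%. These values rested in part on few cells. The standard deviation was also taken without the 3 cells on each day that had over 40% of their gene UMIs on exons. With class M kept, it was then 0.136% at day 0.5 and 0.0826% at day 2.5, against 0.0527% and 0.0423% from counting. The first values left class M out, so these cannot be set against them. In G1 the standard deviation went from 0.197% to 0.0760% at day 2.5 without 1 such cell, which had 529 UMIs. At day 0.5 it went from 0.173% to 0.0653% in G1 without the cell described above. In mid S it went from 0.152% to 0.0623% at day 2.5 without 1 such cell, beside 0.0697% at day 0.5. Without such cells, counting error would give 0.0436% in G1 at day 2.5 and 0.0492% in G1 at day 0.5. For mid S it would give 0.0397% at day 2.5 and 0.0499% at day 0.5. The excess over counting in these classes was thus much smaller without those cells. The quartiles over all cells were 0.261 and 0.364% at day 0.5 and 0.208 and 0.293% at day 2.5, so the days overlapped cell by cell. A share above 1% was found in 5 cells at day 0.5, 4 of them of class M, and in 3 cells at day 2.5, 1 of them of class M. Of these, 4 were very shallow, with 501 to 533 UMIs each.

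Cells with a high small subunit share tended to have a high large subunit share, with a Spearman correlation of 0.36 over all cells of day 0.5 and 0.45 over all cells of day 2.5. The share also went with that of other genes of up to 5 kb (0.55 and 0.38) and with the exon share of gene UMIs (0.36 and 0.28), but hardly with depth (-0.02 and -0.05). All of these values share each cell's library and total.

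The members on the X chromosome are of interest because one X chromosome is silenced in this system. They are Rpl10 (chrX:74270816-74273135), Rps4x (chrX:102184941-102189391), Rpl36a (chrX:134585654-134588062) and Rpl39 (chrX:37082518-37085222). All 4 were called lower, beside 33.4% of the measured chrX genes and 18 of 75 measured autosomal members. Rpl10, which completes the large subunit late in assembly, was at 64.99 and 88.2 CPM at day 0.5 and at 44.5 and 57.4 CPM at day 2.5, which gave 0.647 (0.523 to 0.800). Rps4x, of the small subunit, was at 59.2 and 64.6 CPM and then at 38.3 and 41.8 CPM, which gave 0.642 (0.505 to 0.814). Rpl36a went from 33.5 to 17.3 CPM, or 0.515 (0.361 to 0.729), and Rpl39 from 10.5 to 4.08 CPM. In all 4 genes both day 0.5 batches were above both day 2.5 batches.

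The median log2 change of the 4 was -0.68, of the autosomal members -0.30 and of all measured chrX genes -0.29. The 4 have a median span of 2.56 kb, so the fall of short genes and their place on the X cannot be told apart from these levels. Without them the share ratio of the members was 0.791 (0.767 to 0.816).

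The authors' chrX table splits UMIs by parental allele where a molecule carries a known difference, and molecules with none are left out of it. Only Rps4x had allelic UMIs in number. At day 0.5 it had 52 B6 and 82 CAST UMIs, a B6 share of 38.8% (Clopper-Pearson interval 30.5 to 47.6%), while all chrX genes without Xist and Tsix were at 50.2%. At day 2.5 it had 16 B6 and 43 CAST UMIs, 27.1% (16.4 to 40.3%), beside 38.1% for all chrX genes. The intervals of the days overlap.

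Xist, the RNA that coats the X to be silenced, marks which X a cell is silencing. In 46 day 2.5 cells with Xist UMIs of B6 only, Rps4x had 3 B6 and 15 CAST UMIs, a B6 share of 16.7% (3.58 to 41.4%). In 18 cells with Xist of CAST only it had 4 B6 and 2 CAST UMIs, 66.7% (22.3 to 95.7%). The direction was that of less Rps4x from the X that makes Xist, but the intervals overlap. At day 0.5 the order was the opposite, with 46.7% B6 (7 B6 and 8 CAST UMIs, 21.3 to 73.4%) in 17 cells with Xist of B6 and 31.6% (6 and 13 UMIs, 12.6 to 56.6%) in 21 cells with Xist of CAST, again with intervals that overlap. A second rule counted an allele's Xist only from 2 UMIs, so cells with fewer from the other allele joined the single-allele classes. At day 2.5 the cells with Xist from both went from 49 to 18. By this rule the Rps4x B6 share was 16.7% (6.37 to 32.8%) in 61 cells with Xist of B6, with 6 B6 and 30 CAST UMIs. In 29 cells with Xist of CAST there were 7 B6 and 3 CAST UMIs (interval 34.8 to 93.3%). These intervals do not overlap, but these classes can hold cells with some Xist of the other allele. By the first rule, Rps4x had 9 B6 and 22 CAST UMIs in the 49 cells with Xist from both. Rpl10 had 4 allelic UMIs at day 0.5 and 2 at day 2.5, and Rpl36a 2 and 3, too few for a share.

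The paralogs of members, some of them used mainly in other tissues, ranged widely in level, from 1.51 CPM for Rpl39l to 38.6 CPM for Rpl7l1 at day 0.5. Rpl22l1, the paralog that RPL22 protein is known to repress, made up 16.5% of the UMIs of the pair with Rpl22 at day 0.5 (11.5 to 22.6%) and 19.3% at day 2.5 (13.98 to 25.6%). Rpl7l1, a nucleolar assembly factor, was as abundant as Rpl7, with 52.2% of the pair at day 0.5 and 55.6% at day 2.5. Rps27l, a p53 target, had 5 UMIs at day 0.5 and 12 at day 2.5, at 45.5% (16.7 to 76.6%) and 54.5% (32.2 to 75.6%) of the pair with Rps27. Rpl10l and Rpl39l, retrogenes used in the male germ line, had 6 and 4 UMIs at day 0.5 and 1 and 0 UMIs at day 2.5. The muscle form Rpl3l had 5 UMIs on each day and Rps4l, which RefSeq lists as a pseudogene, 9 and 5. No pair's share differed between the days beyond its counting intervals.

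Lists of other genes around the ribosome, chosen with earlier results known, mostly had medians below 0 as well. The share of a list called lower was 11.8% for translation factors, 16.7% for growth control, 22.7% for mitochondrial ribosomal proteins, 23.5% for ribosome biogenesis and 25.0% for RNA polymerase I, all near or below the 20.4% of all genes. Of 34 measured ribosome biogenesis genes 8 were called lower and 0 higher, with a median log2 change of -0.28. Npm1 and Ncl, the major nucleolar proteins, stood at 693 and 583 CPM and at 443 and 423 CPM, while Fbl, the rRNA methyltransferase fibrillarin, named after its values were seen, was called lower at 45.9 and 25.7 CPM. Of 12 RNA polymerase I genes 3 were lower (Polr1c, Ubtf and Rrn3) and 1 higher (Polr1e). Rrn3, the initiation factor that growth signals regulate, went from 269 to 147.05 CPM and was called lower, and Ubtf, named after its values were seen, went from 82.8 to 21.2 CPM. Mitochondrial ribosomal protein genes, which serve the organelle's own ribosome, had a median of -0.24 over 66 measured members, with 15 lower and 1 higher (Mrpl35). The 34 translation factors had a median of -0.23, with 4 lower (Eif2s3x, Eif3d, Eif5a and Eif6) and 1 higher, Eif4g3, from 38.8 to 542 CPM. Small nucleolar RNA host genes, several of which also begin with a TOP tract, had a median of -0.32 over 12, with none called in either direction.

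Of 18 measured growth control genes 3 were lower (Mycn, Max and Rps6ka1) and 1 higher (Lin28b), with a median of -0.14. Larp1, the TOP mRNA regulator, stood at 404 and 318 CPM, and Mycn, named after its values were seen, went from 22.2 to 10.0 CPM. Of 8 genes around p53 and its targets, 5 were higher (Mdm2, Cdkn1a, Trp53inp1, Ccng1 and Bbc3) and 1 lower. Of all measured genes, 19.4% were higher and 20.4% lower. The median of the 8 was 1.16 (-1.17 to 2.30 by order statistics), and 0.76 within batch 2. Mdm2, the ligase bound by RPL5 and RPL11, went from 105.99 to 290 CPM and Trp53inp1 from 58.9 to 309 CPM, while Trp53 itself went from 160.8 to 68.4 CPM. Rpl5 and Rpl11 stood at the ratios of 0.817 and 0.822 given above, and a link between them and the p53 genes was not tested.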

How the data were processed

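Members and gene lists were chosen with earlier results of these data known. The authors deposited expected counts of UMIs per gene and cell (11.1% of values above 0 are fractions), an allele table of expected counts, and a cell table with counts of UMIs on exons and genes and cell cycle score and class, per the file headers and values. Reads were placed on GRCm38 according to the submitters' processing notes. How they were aligned and counted, whether strand was used and how doublets were treated is not given in sources used here. No doublet caller was run. Of 236 libraries, each of 1 or 2 cells, 406 cells were in the expression table, and no cell name was found in over 1 library (0 shared). The tables' 1101 and 893 columns of other cells were not used. Counts were summed per day without rounding and given as CPM, with a pseudocount of 5 CPM for log2 changes. Levels have exact Poisson intervals, ratios exact conditional ones and shares of pairs or alleles Clopper-Pearson ones. RefSeq (GRCm38.p6) placed 75.8% of gene names, 96.5% of UMIs and all 89 members. Named are the 10 largest falls and 10 highest changes among members with at least 100 UMIs, the 8 with the most UMIs, the chrX members, 7 paralog pairs, Rpl5, Rpl11, Rpl38, Rps19 and Rpsa, and from the companion lists genes among the 4 with the most UMIs; exceptions are stated, and some members that the rule names are not reported here. The size rule and intervals were tested on simulated data. Alternatives covered cells, scaling, pseudocount, minimum, fold, members and denominator. Proteins of paralogs were not compared here. Software was Python 3.11.15, numpy 2.4.6, pandas 2.3.3 and scipy 1.17.1.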

Additional observations from a re-analysis of the deposited data

How the results depend on the processing

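The summed share ratio of 0.781 moved beyond its counting interval in letter B (0.831) and against exon UMIs (0.848). It also did so by the wider symbol rule that counts pseudogenes (0.719) and, chosen after seeing the data, over members with few fractional counts (0.757). It always stayed below 1. The median log2 change of -0.33 was -0.24 in letter B, over 35 members, and kept its sign under each of 12 alternatives. Of the members, 22 were called lower. The count was 13 at a minimum of 100 UMIs, 8 at a fold of 2 and 7 in letter B, each partly by construction. The 0 higher calls became 3 in letter B, 1 without a minimum and 1 without class M; the cause was not tested. The ratio between the days in G1 was 0.824 as a ratio of medians and 0.883 without cells of over 40% exon UMIs. Within batch 2 it was 0.831 in early S, 0.751 in late S and 1.18 in class M. Over all batches the class M ratio of medians was 0.792, beside 0.936 pooled. Class M against other cells was 1.57 at day 0.5 and 2.34 at day 2.5 within batch 2, and 2.33 by medians at day 0.5. With an allele's Xist counted only from 2 UMIs, Rps4x at day 0.5 had 0% B6 in cells with Xist of B6 (3 cells) and 0% in those with Xist of CAST (6 cells). Within batch 2, Rpl3l at day 0.5 was at 0%. Of 43 named members, 22 moved beyond their counting interval in letter B, and 0 called members changed sign in any setting. No paired analysis was possible because the numbers in the cell names only name cells and no test was made. Depth limits members with under 100 UMIs, and each day was 1 sample.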
